A study of Homo sapiens with 2 samples.

Results

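The HOXA genes analysed here are HOXA2, HOXA3, HOXA4, HOXA5, HOXA6, HOXA7, HOXA9, HOXA10, HOXA11 and HOXA13, 10 of 20163 protein-coding genes on the nuclear chromosomes, chosen by name. They lie side by side on chromosome 7 and are all read from the minus strand, so that the promoter of each gene is at its higher coordinate. DNA methylation was compared between 2 established human acute myeloid leukemia (AML) cell lines, OCI-AML3, labelled as DNMT3A mutant and heterozygous per the study, and OCI-AML5, labelled as DNMT3A wild type and called AML5 in the study. Both were grown without treatment, and each is represented by 1 library of bisulfite-treated genomic DNA, so there are no replicates. The lines were established separately, so DNMT3A status and every other difference between them cannot be told apart, and the DNMT3A label itself could not be checked in the call tables.

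HOX genes encode homeodomain transcription factors that give cells their position along the body axis, and their order along the chromosome follows the order in which they are used in the embryo. In blood, HOXA genes are active in stem and progenitor cells and are switched off as cells mature, and HOXA9 with its cofactor MEIS1 is a known driver of myeloid leukemia. DNMT3A is a methyltransferase that places new methyl groups on cytosines of CpG dinucleotides, and CpG-rich promoters such as those of HOX genes carry little methylation in most normal tissues.

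In bisulfite sequencing an unmethylated cytosine is read as thymine and a methylated cytosine as cytosine, so the methylation level of a CpG dinucleotide is the share of its calls that are methylated. The libraries held 902802339 calls in OCI-AML3 and 894828667 in OCI-AML5, and the median CpG had 27 and 30 calls. A single CpG at this genome-wide median depth cannot show a level below 11.1% and 10.0%, respectively, when 3 calls are taken as the smallest number detected. The mitochondrial genome, which is taken as unmethylated, had 0.168% and 0.101% methylated calls and gives the background of the assay. Over all 24454751 nuclear CpGs with more than 5 reads in both lines OCI-AML3 averaged 67.6% and OCI-AML5 75.4%. Promoter levels of myeloid markers (median 76.4% and 68.5%) and lymphoid markers (75.9% and 90.8%) included no gene that differed by over 20 percentage points, and these levels neither establish nor refute the label AML.

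The promoters (within 2000 bp of the transcription start site, TSS) and bodies of the 10 genes held 3324 CpGs, of which 3226 had more than 5 reads in both lines. They averaged 41.6% in OCI-AML3 and 56.2% in OCI-AML5, a difference of -14.5 percentage points (all differences are OCI-AML3 minus OCI-AML5). Fisher's exact test on the calls of each CpG, with Benjamini-Hochberg adjustment over all nuclear CpGs, called 897 CpGs lower in OCI-AML3 (27.8%) and 184 CpGs higher (5.70%). Of all nuclear CpGs tested, 14.7% were called lower and 3.86% higher. With 1 library per line this test compares the reads of these libraries and not the conditions, and several calls can come from 1 read. The lines also differed in depth here, with means of 52.0 and 36.5 reads per CpG (medians 53 and 36). The ratio was 1.42, against 1.22 over chromosome 7 and 1.02 over the genome. Over the HOXB, HOXC and HOXD clusters, on other chromosomes, it was 1.34, 1.38 and 1.33. The part of the depth ratio in the levels was not tested. DNA from a whole culture was sequenced, so an intermediate level cannot tell partly methylated alleles apart from a mixture of methylated and unmethylated ones.

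The cluster fell into 2 sides. From HOXA2 to HOXA7 (chr7:27139973-27197555, GRCh37, as all coordinates here) 1841 CpGs averaged 69.9% in OCI-AML3 and 76.4% in OCI-AML5. The test called 309 of these CpGs lower and 184 higher, and stretches of high and low methylation alternated in both lines. From HOXA9 to HOXA13 (chr7:27202057-27239710) 1516 CpGs averaged 0.349% ± 1.71 (SD over CpGs) in OCI-AML3 and 26.6% ± 30.7 in OCI-AML5. There the test called 689 CpGs lower (45.4%) and 0 higher.

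**Figure D1:**
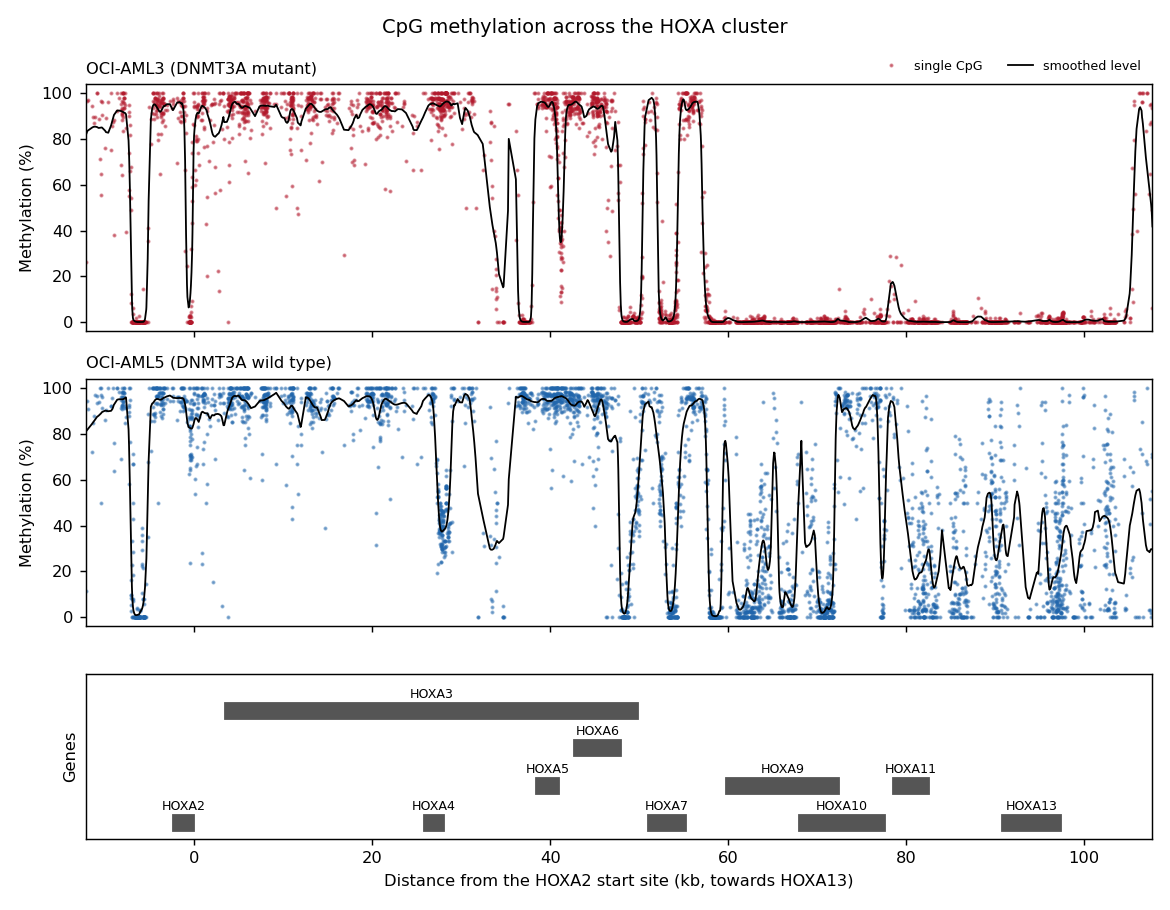
Methylation of single CpGs (dots, %) and the smoothed level (line) across the HOXA cluster in OCI-AML3 and OCI-AML5, against the distance from the HOXA2 start site in kb, with the 10 genes as bars. In OCI-AML3 the dots from HOXA9 to HOXA13 lie near 0, with a mean of 0.349%, whereas in OCI-AML5 they spread from 0 to 100% around a mean of 26.6%.

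By promoter, 6 of the 10 genes were lower in OCI-AML3 by over 20 percentage points (HOXA2, HOXA3, HOXA9, HOXA10, HOXA11 and HOXA13) and 1, HOXA4, was higher. Among 19667 protein-coding promoters with at least 10 CpGs, 8.61% were lower and 1.79% higher by the same measure. Some of these calls rest on the window taken. With the canonical TSS HOXA9 differed by -14.7 points, in the 2000 bp upstream only HOXA2 differed by -0.021 and HOXA11 by -17.6, and as a share of all calls HOXA2 differed by -18.7. HOXA10, the lowest of the 10 genes here, was passed by HOXA9 within 1000 bp of the TSS (-52.9 and -56.0) and in the 2000 bp upstream only (-75.7 and -88.5), and with the canonical TSS it differed by -24.7, close to HOXA13 with -24.8. The median difference was -20.9 points over the HOXA promoters and -4.68 over all promoters. By gene body, 4 of the 10 genes (HOXA2, HOXA10, HOXA11 and HOXA13) were lower by over 20 points and HOXA4 was higher, against 6.56% and 0.613% of 19570 gene bodies. These genes are neighbours and their windows partly overlap (those of HOXA3 and HOXA6 share 125 CpGs), so the 10 values are not independent.

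**Figure D2:**
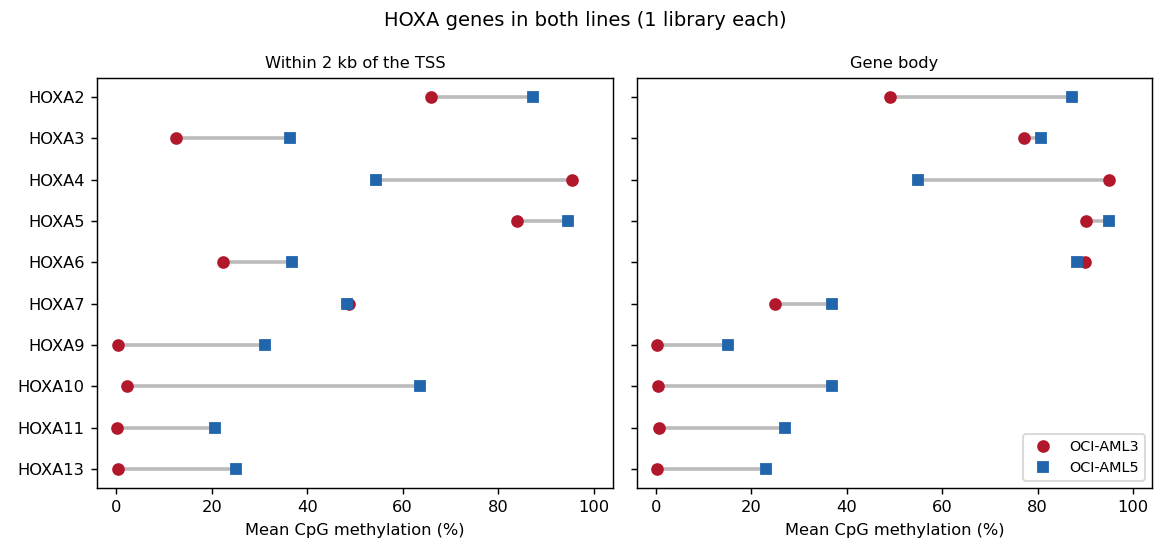
Mean CpG methylation (%) of the 10 HOXA genes within 2000 bp of the TSS and over the gene body, with OCI-AML3 as circles and OCI-AML5 as squares (1 library each). HOXA4 is the gene whose circle lies far to the right of its square, at 95.4% against 54.4% in the promoter, and HOXA10 has the widest promoter gap in the other direction for these windows, 2.13% against 63.7%.

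Differentially methylated regions (DMRs), runs of at least 3 CpGs whose 95% intervals of the smoothed level did not overlap between the lines, numbered 28 hypomethylated and 13 hypermethylated in OCI-AML3 within the 120 kb around the genes. Of these, 17 and 3 differed by at least 20 percentage points. The direction is that of the smoothed level and can go against the unsmoothed mean. A hypermethylated DMR of 4 CpGs averaged 36.7% in OCI-AML3 and 49.0% in OCI-AML5. Of the 3226 CpGs of the 10 genes, 1922 (59.6%) lay in hypomethylated and 388 in hypermethylated DMRs. Over the genome the shares were 49.4% and 8.54%, so DMRs as such were common everywhere.

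HOXA2, a patterning factor of the hindbrain and of the neural crest that leaves it, differed around its exon 1. Its promoter (TSS 27142305) averaged 65.9% ± 39.3 in OCI-AML3 and 87.3% ± 14.7 in OCI-AML5 (SD over 139 CpGs). The difference lay inside the gene: exon 1 had 23.3% and 82.1% over 43 CpGs, whereas exon 2 had 93.5% and 94.9% over 21 CpGs. The DMR at chr7:27141115-27142236 covered 53 CpGs with levels of 27.9% and 83.3%, and 39 of them were called lower. In OCI-AML3 33 CpGs of the promoter window were below 20% and 80 above 80%, and in OCI-AML5 0 were below 20%. The 300 bases of the gene, outside UTRs, with the largest difference run from intron 1 into exon 1 and hold 9 CpGs at 3.30% and 86.0%. They are given 5′ to 3′ on the plus strand of the reference, as are the sequences of the other genes, and capitals mark the CpGs called different at an adjusted P below 0.05, here all 9:
HOXA2, chr7:27141476-27141775: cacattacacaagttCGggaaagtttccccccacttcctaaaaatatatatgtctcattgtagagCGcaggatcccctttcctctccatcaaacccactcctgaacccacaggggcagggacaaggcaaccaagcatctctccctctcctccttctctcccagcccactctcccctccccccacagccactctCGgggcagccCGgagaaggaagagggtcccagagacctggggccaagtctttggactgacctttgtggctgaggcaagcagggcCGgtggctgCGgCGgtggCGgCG

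HOXA3, which patterns the pharyngeal organs such as the thymus, spans chr7:27145803-27192202 and overlaps HOXA4, HOXA5 and HOXA6. Its promoter (TSS 27192202) had 12.6% ± 29.3 in OCI-AML3 and 36.3% ± 35.5 in OCI-AML5 (SD over 167 CpGs), and the noncoding exon 1 had 0.770% and 54.3%, with all 24 of its CpGs called lower. The DMR at chr7:27190328-27192944 (149 CpGs) had 6.79% and 33.5%. The body as a whole, with 1447 CpGs, showed 77.2% and 80.6%. Its introns differed in direction, with 68.8% and 77.5% over the 544 CpGs of intron 1 and 70.1% and 65.2% over the 316 CpGs of intron 2, which contains HOXA4. Exons 5 and 6, which hold the coding sequence, were at 94.3% and 94.7% in OCI-AML3 and at 94.3% and 95.3% in OCI-AML5. A separate DMR within the gene, chr7:27178451-27180532, lay just beyond the 3′ end of HOXA5, in introns 1 and 2 of HOXA3, and separated the lines almost completely. Its 82 CpGs averaged 5.37% in OCI-AML3 and 95.6% in OCI-AML5, and 78 were called lower. It covers the noncoding exon 2 of HOXA3, whose 3 CpGs had 0% (0 of 160 calls) and 96.2%. The 300 bases with the largest difference of all 10 genes lie in this DMR and in no annotated exon, and each of their 11 CpGs had 0 methylated calls in OCI-AML3 (0 of 358) and 91.4% to 100% in OCI-AML5:
HOXA3, chr7:27178768-27179067: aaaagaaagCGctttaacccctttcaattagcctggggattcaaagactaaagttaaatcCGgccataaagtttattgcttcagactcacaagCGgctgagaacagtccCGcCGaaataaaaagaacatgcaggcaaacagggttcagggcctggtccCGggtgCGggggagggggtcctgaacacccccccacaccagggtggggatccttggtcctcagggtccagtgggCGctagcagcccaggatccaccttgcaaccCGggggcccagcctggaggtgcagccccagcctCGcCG

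CTCF is a zinc finger protein that divides the HOXA cluster into domains and binds less well to some sites when their CpG is methylated. The core of its motif was searched on both strands as AGGGGGCGC and was found 3 times in the cluster, with a usable CpG in 2 matches. Both matches lie in HOXA3. The CpG of the match at 27149960 had 96.7% in OCI-AML3 (30 calls) and 91.7% in OCI-AML5 (12 calls), and that of the match at 27163497 had 90.0% and 85.7%. Of 23869 genome tiles of 120 kb, 19.9% hold this motif. The wider motif AGNGGGCGC matched 5 times, including the same 3 matches, and 51.2% of tiles hold it. Another match, AGTGGGCGC at chr7:27178994-27179002, lies in the HOXA3 sequence printed above. Its CpG had 0 of 33 calls methylated in OCI-AML3 and 31 of 31 in OCI-AML5. That sequence was picked for its large difference, so the difference of this CpG follows from the choice and is no separate result. CTCF binding was not tested. A match of letters is not a binding site.

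HOXA4, an axial patterning factor that is also used in blood progenitors, was the exception in direction. Its promoter (TSS 27170399) had 95.4% ± 4.31 in OCI-AML3 and 54.4% ± 24.1 in OCI-AML5 (SD over 184 CpGs), a difference of 41.0 percentage points. As shares of all calls these were 95.2% (95% Wilson interval 94.7% to 95.7%) and 54.9% (53.7% to 56.2%). Of all promoters tested, 99.7% had a lower difference. The test called 136 of the 184 CpGs higher in OCI-AML3 and 0 lower. The DMR at chr7:27169136-27171313 held 158 CpGs at 95.3% and 47.7%. Exon 1 had 94.6% in OCI-AML3 and 39.5% in OCI-AML5, where its 74 CpGs ranged from 24.0% to 54.5%, and exon 2 had 95.4% and 94.9%. In OCI-AML5 141 of the 184 promoter CpGs lay between 20% and 80%, 42 above 80% and 1 below 20%, so the lower level in this line was an intermediate one. The 300 bases with the largest difference lie upstream of the TSS and hold 15 CpGs, all called higher, with 93.9% to 100% in OCI-AML3 and 33.3% to 47.4% in OCI-AML5:
HOXA4, chr7:27170638-27170937: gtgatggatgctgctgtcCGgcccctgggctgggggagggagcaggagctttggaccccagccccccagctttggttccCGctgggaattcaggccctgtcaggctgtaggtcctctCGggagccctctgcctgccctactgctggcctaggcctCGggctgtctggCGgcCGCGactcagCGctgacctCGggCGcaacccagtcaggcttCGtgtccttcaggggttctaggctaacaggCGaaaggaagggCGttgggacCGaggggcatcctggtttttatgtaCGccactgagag

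**Figure D3:**
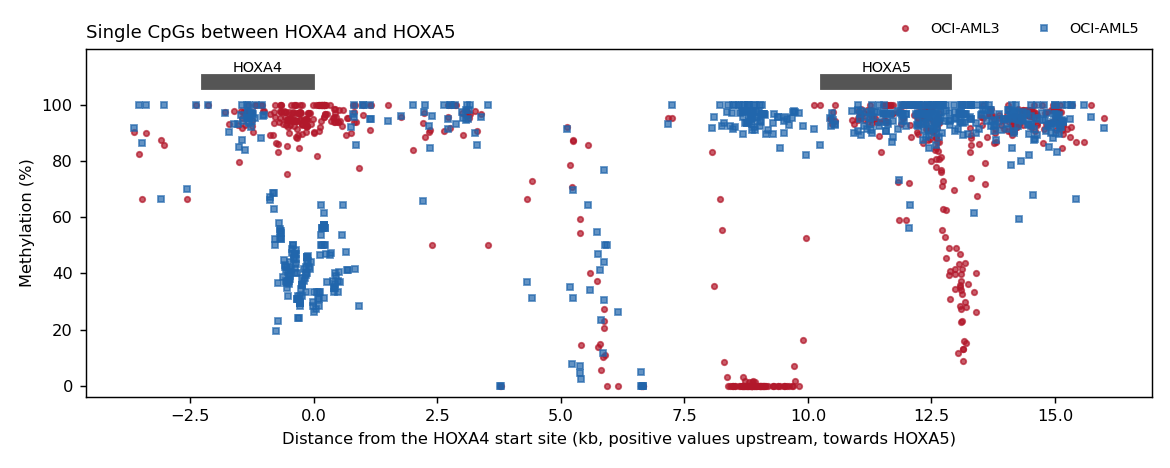
Methylation (%) of single CpGs from HOXA4 to beyond HOXA5, against the distance from the HOXA4 start site in kb, with OCI-AML3 as circles, OCI-AML5 as squares and the genes as bars. The lines change places: around the HOXA4 start OCI-AML5 is the lower line (47.7% against 95.3% over the DMR), and in front of the HOXA5 end OCI-AML3 is at 5.37% where OCI-AML5 is at 95.6%.

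HOXA5, a regulator of lung and myeloid development, was methylated in both lines. The promoter (TSS 27183300) had 84.1% ± 22.6 and 94.6% ± 6.25 (SD over 252 CpGs), with 46 CpGs called lower and 2 higher. The difference was concentrated at the start site, where the 4 CpGs of the 5′ UTR had 40.1% and 94.9%, and the remainder of the gene, such as exon 2 with 96.2% and 94.8%, was close in level. The DMR at chr7:27182741-27184189 held 113 CpGs at 71.0% and 95.6%. Intermediate levels were thus found in OCI-AML3 here and in OCI-AML5 at HOXA4. The 300 bases with the largest difference lie just upstream of the TSS, and their 25 CpGs had 8.70% to 49.0% in OCI-AML3 and 89.5% to 100% in OCI-AML5:
HOXA5, chr7:27183376-27183675: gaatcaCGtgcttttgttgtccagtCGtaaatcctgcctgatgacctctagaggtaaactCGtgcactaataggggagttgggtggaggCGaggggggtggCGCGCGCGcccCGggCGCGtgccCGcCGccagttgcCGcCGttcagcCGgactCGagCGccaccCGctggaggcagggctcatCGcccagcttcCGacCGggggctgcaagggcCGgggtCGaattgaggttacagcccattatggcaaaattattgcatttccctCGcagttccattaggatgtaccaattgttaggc

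HOXA6 and HOXA7 belong to the central part of the axial series, and HOXA7 is among the targets of mixed lineage leukemia fusion proteins. The value of both depends on which TSS is taken. For HOXA6 the most upstream annotated TSS (27190222) lies next to HOXA3, and its window had 22.3% ± 37.4 and 36.8% ± 37.1 (SD over 173 CpGs). The window around the canonical TSS (27187393) had 91.5% and 89.8%, a difference of 1.70 points, and exon 1 had 94.0% and 89.5%. For HOXA7 the most upstream TSS (27197555) gave 48.8% and 48.3%, whereas the canonical TSS (27196294) gave 31.8% and 42.5%. Exon 1 of HOXA7, with 44 CpGs, was nearly unmethylated in both lines (0.613% and 3.80%), and exon 2 had 29.9% and 71.6%, with 38 of its 55 CpGs called lower. Within exon 2 the 22 CpGs of the 3′ UTR had 69.8% and 83.9%, and 5 of them were called lower. The DMR at chr7:27194251-27196501 (148 CpGs) had 6.96% and 27.1%. The DMR between HOXA7 and HOXA9, chr7:27199033-27202798, had 9.57% and 30.7% over 157 CpGs and ends inside HOXA9.

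From HOXA9 onwards OCI-AML3 carried almost no methylation. HOXA9 is the HOX gene most often linked to AML and acts with MEIS1, and HOXA10 drives the expansion of blood progenitors. The canonical HOXA9 transcript starts at 27205156, and the window around it had 0.218% ± 0.586 in OCI-AML3 and 14.9% ± 18.2 in OCI-AML5 (SD over 256 CpGs). Exon 1 had 0.139% and 10.9%, and intron 1 had 0.0231% and 4.41%, so the core of the gene was low in both lines. The most upstream TSS annotated to HOXA9 (27214799) lies beyond the canonical HOXA10 start (27213939), and its window had 0.258% ± 1.12 and 31.2% ± 39.8 over 229 CpGs, of which 93 were called lower and 0 higher. The 2000 bp upstream of it alone, which lie within the annotated body of HOXA10 and are counted for both genes, differed by -88.5 points. The 300 bases with the largest difference lie there, in no annotated exon, with 17 CpGs at 0.252% in OCI-AML3 and 79.5% to 97.4% in OCI-AML5:
HOXA9, chr7:27215549-27215848: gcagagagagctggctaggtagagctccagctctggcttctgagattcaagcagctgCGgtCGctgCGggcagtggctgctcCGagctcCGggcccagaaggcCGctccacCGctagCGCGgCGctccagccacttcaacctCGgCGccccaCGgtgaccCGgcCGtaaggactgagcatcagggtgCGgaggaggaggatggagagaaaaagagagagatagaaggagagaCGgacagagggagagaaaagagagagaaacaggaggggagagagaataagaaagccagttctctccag

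HOXA10 differed most around its most upstream TSS. The window of its most upstream TSS (27219880) had 2.13% ± 5.54 and 63.7% ± 38.2 (SD over 100 CpGs), a difference of -61.6 points, and 80 CpGs were called lower. As shares of calls the levels were 1.23% (95% Wilson interval 0.936% to 1.60%) and 60.2% (58.5% to 61.8%). Only 0.117% of all promoters had a lower difference. The canonical window had 0.261% and 24.9%, and the canonical transcript itself was low in both lines, with 0.159% and 5.02% over the 122 CpGs of exon 1. What separated the lines was the interval upstream of the canonical start, chr7:27213940-27219880, whose 197 CpGs had 0.552% and 64.7%, and the end of the gene, where exon 2 had 0.0736% and 33.3%. The printed bases lie in that upstream interval and in no annotated exon, and their 10 CpGs had 0% to 4% in OCI-AML3 and 93.3% to 100% in OCI-AML5:
HOXA10, chr7:27218622-27218921: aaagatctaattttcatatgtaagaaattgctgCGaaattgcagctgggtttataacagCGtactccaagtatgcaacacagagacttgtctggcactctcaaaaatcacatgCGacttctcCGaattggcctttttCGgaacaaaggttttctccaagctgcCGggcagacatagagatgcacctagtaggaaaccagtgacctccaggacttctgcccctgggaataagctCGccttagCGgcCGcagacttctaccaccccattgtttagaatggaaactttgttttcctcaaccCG

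HOXA11 and HOXA13, which pattern the limb, the kidney and the genital tract, are the last genes of the series. The HOXA11 promoter (TSS 27224851) had 0.180% ± 0.782 and 20.6% ± 22.5 (SD over 193 CpGs), with 88 CpGs called lower. Its exon 1 had 0.186% and 22.4%, and exon 2 had 3.56% and 58.1%. The HOXA13 promoter (TSS 27239710) had 0.331% ± 0.914 and 25.1% ± 24.7 (SD over 244 CpGs), with 117 called lower, and its exons 1 and 2 had 0.0917% and 18.4%, and 0.485% and 37.3%. Among the genes of 2 exons, exon 2 had the higher mean level in OCI-AML5 in all but HOXA5 (95.6% in exon 1 and 94.8% in exon 2). For HOXA9 the order turned with shares of calls, 9.30% in exon 1 and 8.62% in exon 2. The DMRs over these genes were chr7:27218176-27226330 (311 CpGs, 0.835% and 35.3%), chr7:27230713-27233719 (166 CpGs, 0.176% and 36.1%), chr7:27236932-27240804 (253 CpGs, 0.402% and 26.6%) and chr7:27241132-27243523 (49 CpGs, 0.414% and 30.1%). The DMR of HOXA9 and HOXA10, chr7:27210940-27217794, held 328 CpGs at 0.260% and 31.9%. Between HOXA11 and HOXA13, where no coding gene of the cluster lies, the shares of methylated calls over 326 CpGs were 0.184% (95% Wilson interval 0.130% to 0.262%) and 27.2% (26.5% to 28.0%).

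The low methylation of OCI-AML3 ran through all of these genes. Starting from the canonical HOXA10 start and going outwards until a CpG of 50% or more was met, a rule chosen after the values were seen, the run spanned chr7:27199644-27247652, 48009 bp with 1886 CpGs. Over it, 434 of 102868 calls were methylated in OCI-AML3 (0.422%, 95% Wilson interval 0.384% to 0.463%), against 27.4% (27.1% to 27.8%) of 71310 calls in OCI-AML5. The run was bounded by the level of OCI-AML3 itself, so a low level of this line over it follows in part from the rule. The mitochondrial background in OCI-AML3 was 0.168%. At the edge towards HOXA7 both lines dropped, from 80.7% and 94.4% over the last 21 CpGs before the run to 3.79% and 28.4% over the 71 CpGs of its first 1000 bp. Beyond the other edge OCI-AML3 was the higher line. The next CpG (27247698) had 67.3% and 25%, and the 20 CpGs of chr7:27248000-27249999 averaged 80.3% and 40.3%. The same walk in OCI-AML5 ended after 2034 bp (chr7:27212169-27214202), around the start of HOXA10, where 191 CpGs had 4.73%. With a limit of 20% in place of 50% the run in OCI-AML3 was 20456 bp and in OCI-AML5 264 bp. In OCI-AML5, 1049 of the 1886 CpGs were below 20%, 636 between 20% and 80%, and 201 above 80%.

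**Figure D4:**
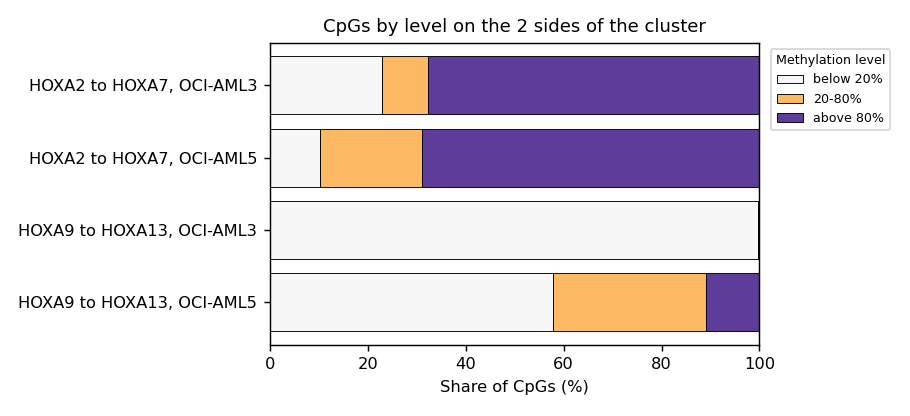
Share of CpGs (%) below 20%, between 20% and 80%, and above 80% methylation, from HOXA2 to HOXA7 (1841 CpGs) and from HOXA9 to HOXA13 (1516 CpGs) in each line. From HOXA9 to HOXA13 99.8% of CpGs are below 20% in OCI-AML3, and OCI-AML5 has 57.9% below 20% and 31.3% at intermediate levels.

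The counts of CpGs without any methylated call differed as well. From HOXA9 to HOXA13, 1343 of 1516 CpGs (88.6%) had 0 methylated calls in OCI-AML3 and 297 (19.6%) in OCI-AML5, at 55.6 and 38.5 reads per CpG. Over all nuclear CpGs used the shares were 10.7% and 6.99%, so both lines were above their own genome share here.

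Long unmethylated stretches, runs of CpGs at a smoothed level of at most 10% with gaps of at most 300 bp and a length of at least 3500 bp, numbered 293 in the genome of OCI-AML3 and 135 in that of OCI-AML5. In OCI-AML3, 4 of them lay in the HOXA cluster, 28868 bp in all. The one over HOXA9, chr7:27199776-27210169 (524 CpGs, 0.505%, and 16.2% in OCI-AML5), was with 10394 bp the longest of the 293, whose median was 4050 bp. With a limit of 20% it was the second longest (10526 bp of at most 11346 bp). The others covered HOXA9 and HOXA10 (6855 bp), HOXA11 (5027 bp) and HOXA13 (6592 bp). In OCI-AML5 the cluster had 0 such stretches. With a gap of up to 1000 bp, an alternative chosen after seeing the data, the 4 merged into 2 of 20490 and 25720 bp, which ranked 3 and 2 by length.

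The noncoding RNAs of the HOXA9 to HOXA13 side shared its low level in OCI-AML3, and the others varied in level and direction. HOTTIP, which helps to keep the last HOXA genes active, starts inside HOXA13 and had a promoter level of 0.432% in OCI-AML3 and 25.3% in OCI-AML5. HOXA11-AS, the antisense partner of HOXA11, had 0.205% and 21.6%, and HOXA10-AS had 0.108% and 16.8%. HOXA-AS3 starts within HOXA4 and had 95.3% and 54.5%, HOXA-AS2 had 93.6% and 94.1%, and HOTAIRM1, a myeloid regulator at the other end of the cluster, had 24.2% and 29.2%. Of these 6, 2 were lower by over 20 points and 1 higher, but the windows of HOTTIP, HOXA11-AS and HOXA-AS3 share CpGs with those of HOXA13, HOXA11 and HOXA4.

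The HOX clusters differed in direction. From the start of the first gene to the end of the last, the mean level was 38.2% and 53.6% in HOXA (-15.4 points), 41.2% and 58.2% in HOXB (-17.1), 41.3% and 33.3% in HOXC (7.96) and 59.3% and 44.6% in HOXD (14.8). By promoter, 1 of 10 HOXB genes was lower by over 20 points (HOXB5, -43.9) and 0 higher, 0 of 9 HOXC genes lower and 1 higher (HOXC12, 25.6), and 0 of 9 HOXD genes lower and 5 higher (HOXD10, 26.7, as the largest). In OCI-AML3 186 of 3569 CpGs of HOXA lay between 20% and 80%, against 1345 of 4543 in HOXB, 1347 of 3208 in HOXC and 1392 of 3228 in HOXD. In OCI-AML5 these counts were 893, 1000, 1416 and 1782 of the same CpGs. CpGs at exactly 0 in OCI-AML3 numbered 1704 in HOXA, 880 in HOXB, 427 in HOXC and 192 in HOXD. In OCI-AML5 they numbered 468, 576, 515 and 230 in the same order. None of the other clusters held a long unmethylated stretch in either line. With 1 library per line these contrasts between clusters were not tested.

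**Figure D5:**
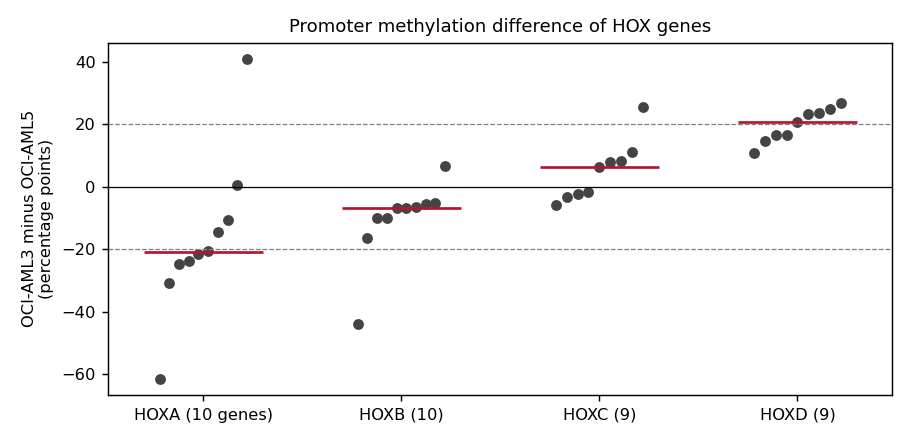
Difference in promoter methylation (OCI-AML3 minus OCI-AML5, percentage points) of each gene of the 4 HOX clusters, with the median of each cluster as a line and the limits of 20 points dashed. The medians are -20.9 in HOXA, -6.83 in HOXB, 6.42 in HOXC and 20.8 in HOXD, and HOXA has both the lowest gene (HOXA10, -61.6) and the highest (HOXA4, 41.0).

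Genes that work with or on HOXA genes were described in the same way. Of 9 cofactor genes of the MEIS, PBX and PKNOX families, 1 promoter was lower by over 20 points (PBX2, 15.8% and 43.6%) and 0 were higher. Among 7 genes of the MLL, menin and DOT1L activating complexes 0 passed the limit in either direction, with a median difference of -2.10 points and MEN1 as the lowest (-8.10). Among 10 Polycomb genes, whose products keep HOX genes silent, 0 passed it, with a median of -2.86 and CBX8 as the lowest (-10.5). The median over all promoters was -4.68.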

How the data were processed

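Genomic DNA of OCI-AML3 and OCI-AML5 (1 library each) was bisulfite-treated and sequenced from both ends by the authors. Per the submitters' processing notes, reads were aligned to hg19 (GRCh37) with Bismark and Bowtie 0.12.8. The deposited tables give, for each CpG with both strands added, a raw count of methylated calls and another of unmethylated calls, without normalization. Whether duplicate reads were removed is not given in the sources used here. The column of methylated calls was identified from the mitochondrial genome (0.168% and 0.101%). The listed position is the G of each CpG, as checked against the GRCh37 sequence. The tables held 902802339 and 894828667 calls.

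CpGs with more than 5 reads in both lines were used. Gene levels are means over CpGs and shares of calls have Wilson 95% intervals, which cover counting error only. Genes, exons and TSSs came from GENCODE lifted to GRCh37, promoters reach 2000 bp to each side from the most upstream TSS, and features needed at least 10 CpGs. Each CpG was tested by Fisher's exact test, adjusted after Benjamini and Hochberg over 24454751 CpGs and called at 0.05. For DMRs and stretches, levels were smoothed by local likelihood (a window of 1000 bp to each side or 70 CpGs, whichever was wider). The text names all 10 HOXA genes, the cluster noncoding RNAs, the 12 DMRs with most CpGs among those that overlap a member with at least 10 CpGs and a difference of at least 20 points, extreme genes of the other lists (not all are reported here), and sequences for at most 6 genes (300 bases outside UTRs with the largest difference over at least 8 CpGs). The members and lists were chosen with earlier results of these data known. Smoothing and test were tested on simulated data. Alternatives covered read minimum, window, TSS, averaging, thresholds, smoothing, gap and motif. The tools were matplotlib 3.10.9, numba 0.67.0, pandas 2.3.3, scipy 1.17.1, numpy 2.4.6 and Python 3.11.15.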

Additional observations from a re-analysis of the deposited data

How the results depend on the processing

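The number of HOXA promoters lower by over 20 percentage points (6) was 5 or 6 under every alternative at this limit. HOXA9 was lost with the canonical TSS, and HOXA2 with shares of all calls. That of gene bodies (4) stayed at 4. With a limit of 10 percentage points in place of 20, 8 promoters and 6 gene bodies were lower. The number of CpGs called different (1081) stayed between 1006 and 1081 under every alternative run. The number of DMRs (41) was 116 with unsmoothed Wilson intervals, 20 with a difference of at least 20 points and 26 with no limit on the gap. The unmethylated stretches of OCI-AML3 (4) became 2 with gaps of up to 1000 bp, an alternative chosen after seeing the data. Promoters of other HOX genes and regulators lower by over 20 points (4) were 7 in the 2000 bp upstream only. CpGs in CTCF motif matches lower by over 20 points (0) were 1 with the wider motif. No promoter that differed by over 20 points in the main setting turned its direction. HOXA6 (-14.5 points) turned to 1.70 with the canonical TSS. HOXA7 (0.521) turned to -10.7 with the canonical TSS, -6.19 as a share of all calls and -2.13 in the 2000 bp upstream only. Of 50 single promoter values 29 moved, mostly with the window. The causes were not tested. In the 2000 bp upstream only, HOXA2 (-0.021 points) and HOXA11 (-17.6) no longer passed 20 points and HOXA6 (-20.7) did. No paired analysis was possible because each line has 1 library. At the genome-wide median depth of 27 and 30 calls a single CpG cannot show a level below 11.1% and 10.0% (the CpGs of the HOXA genes had medians of 53 and 36 reads), and no difference between the lines could be set against variation between cultures.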
